A study of Rattus norvegicus with 6 samples.

Results

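The genes described here mark T cells and natural killer (NK) cells, lymphocytes of which some live among the epithelial cells of the gut. They are Cd3e, Cd3d, Cd3g, Cd247, Lck, Cd8a, Cd4, Gzmb, Nkg7 and Ptprc, 10 of the 12340 genes in the table. They were chosen by symbol through the RefSeq rat annotation, and the 15 transcripts that carry these symbols were summed to 1 value per gene. All 10 had a row, and 9 reached the mean of 1 FPKM (fragments per kilobase of transcript, scaled to the library's mapped fragments) that was needed for a test. Cd3d, the other one, stood at a mean of 0.38 FPKM.

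The tissue was colonic epithelium, its inner layer, from 6 male Wistar rats, all adult. 3 animals, numbered 4 to 6, were injected intraperitoneally with melatonin at 1 mg/kg, and 3, numbered 1 to 3, with vehicle, which was 2.5% ethanol in PBS. The injection was given at the start of subjective night and the tissue was taken 4 h later. The pineal gland had been removed in both groups, so the controls also lacked its nightly melatonin. The comparison asks how the colonic epithelium responds to the hormone, and each library is the layer of 1 animal, epithelial cells and leukocytes together. Hba-a1, a red blood cell gene, stood at 44.5 to 99.9 FPKM, so leukocytes of the blood cannot be told from resident ones. In such bulk RNA, fewer cells of a type and less RNA per cell cannot be told apart.

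A T cell recognises antigen with a receptor that has no signalling tail of its own and hands the signal to the CD3 chains and the zeta chain. The kinase Lck, held at the coreceptors CD4 and CD8, then phosphorylates these chains. Cytotoxic T cells and NK cells kill by releasing granules that hold granzymes and perforin. The phosphatase CD45, encoded by Ptprc, sits on all leukocytes and keeps Lck ready for activation. In the gut, lymphocytes between the epithelial cells are held by an integrin that binds E-cadherin, and many of them are CD8+ and carry granzymes without a new stimulus. In the rat, CD4 is also found on macrophages and CD8 alpha on NK cells, so neither is a T cell marker alone.

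The libraries were shallow for genes at this level. The steps between low FPKM values gave an estimated 3310000 to 3630000 mapped fragments per library, and the median tested feature had 123.3 estimated reads. Epithelial markers were abundant: the 14 with a row summed to 13978 to 15664 FPKM after melatonin and 14419 to 15046 FPKM after vehicle. Their change was above 0 for 9, against 46% of all features, and below 0 for 5, with a median of 0.06 and 0 called by limma. Epcam, at 1136 to 1202 FPKM after melatonin and 1239 to 1252 FPKM after vehicle, was the only one of the 14 with all melatonin animals below all vehicle animals. That held for 4.33% of all tested features. Summed over the 10 lymphocyte genes, the level was 19.2, 22.6 and 33.4 FPKM in melatonin animals 4, 5 and 6. It was 19.0, 17.9 and 11.1 FPKM in vehicle animals 1, 2 and 3. The lowest melatonin value thus lay next to the highest vehicle value.

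Lymphocyte transcripts were present in all 6 animals at levels near the lower end of the table. By their mean over the 6 animals the order was Cd247 at 3.49 FPKM, Nkg7 at 3.17, Cd3e at 2.42, Ptprc at 2.38, Lck at 2.28, Gzmb at 1.92, Cd4 at 1.66, Cd3g at 1.58, Cd8a at 1.26 and Cd3d at 0.38. Each step to the next gene in this order was smaller than the larger SD over animals of the pair, so no neighbours stood apart. Cd247, the highest, lay above 14.2% of all tested features, and Cd8a, the lowest one tested, above 2.31%. Estimated reads per library ran from 22.1 to 87.4 for Ptprc and from 11.8 to 26.2 for Cd247. They ran from 3.0 to 18.0 for Cd3e and from 0 to 3.0 for Cd3d.

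No lymphocyte gene changed past the threshold. In limma on log2(FPKM + 1), with a threshold of 0.05 on the adjusted p, 0 of the 9 tested genes were called higher and 0 lower, where 0% of all 10137 features were called in each direction. At an unadjusted p under 0.05, 1 of the 9 was higher, against 1.82% of all features, and 0 were lower, against 1.92%. limma voom on estimated reads also called 0 of the 9 and 0% of all features, and at an unadjusted p under 0.05 it had 1 of the 9 higher, against 1.64%, and 0 lower, against 1.81%. Without melatonin animal 4, 3 of the 9 were higher at an unadjusted p under 0.05, against 4.74% of all features, and 0 lower, against 6.63%. There 0 of the 9 passed the adjusted threshold, against 0.0395% of all features higher and 0% lower. The 3 at an unadjusted p under 0.05 was the largest such count with any single animal left out. Without vehicle animal 3 the count was 0, and the share of all features there was not computed. In the main fit the change was above 0 for 8 of the 9, where 46% of all tested features lay above 0. The median change was 0.40 beside -0.02 over all features. The highest value was in melatonin animal 6 for 4 of the 10 genes, against 14.2% of all features. It was in melatonin animals 4 and 5 for 2 each, against 21.2% and 16.1%. It was in vehicle animals 1 and 2 for 1 each, against 11.6% and 20.2%. No single melatonin animal was thus high throughout. With 3 animals against 3, an exact permutation test of a single gene cannot go below p = 0.1.

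**Figure D1:**
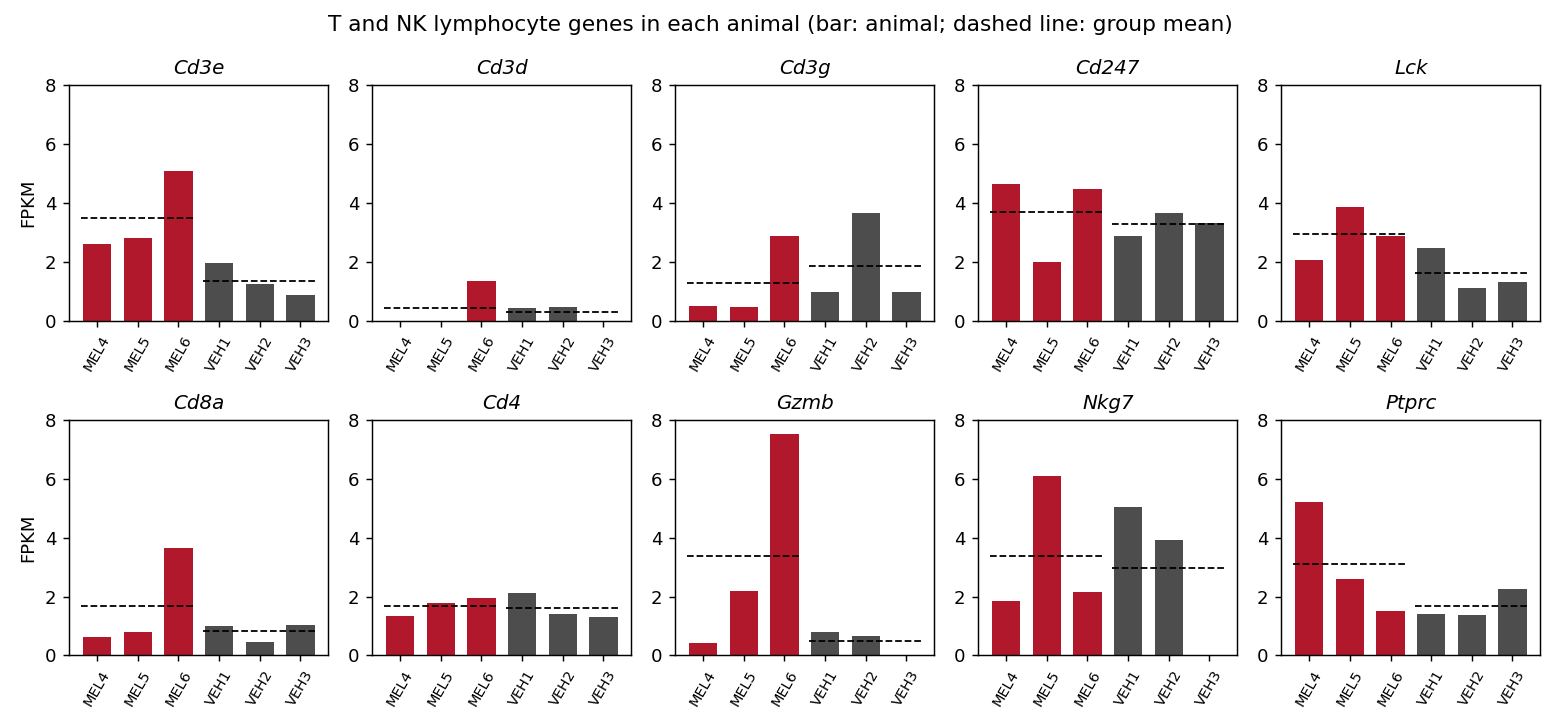
FPKM of the 10 lymphocyte genes in each animal, with melatonin animals (MEL) in red and vehicle animals (VEH) in grey; dashed lines are group means. Gzmb and Cd8a stand highest in melatonin animal 6, at 7.52 and 3.65 FPKM, and Ptprc in melatonin animal 4, at 5.19 FPKM.

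Of the chains of the T cell receptor complex, Cd3e was the one whose groups did not overlap. Cd3e encodes the epsilon chain, which pairs with both the gamma and the delta chain. It stood at 2.60, 2.81 and 5.07 FPKM in melatonin animals 4, 5 and 6, against 1.97, 1.23 and 0.86 FPKM in vehicle animals 1, 2 and 3. All 3 melatonin animals lay above all 3 vehicle animals, by the margin between 2.60 and 1.97 FPKM. The same held for 4.04% of all tested features, and none of the 9 genes had all melatonin animals below all vehicle animals, against 4.33% of features. The means were 3.49 ± 1.37 FPKM after melatonin and 1.35 ± 0.565 FPKM after vehicle (SD, n = 3 each). The log2 change was 0.92 ± 0.30 (SE; limma unadjusted p = 0.0154, limma adjusted p = 0.972). Without melatonin animal 6 it was 0.68 (limma unadjusted p = 0.0546), and without vehicle animal 3 it was 0.76 (limma unadjusted p = 0.0545). The FPKM values correspond to 8.9, 10.1 and 18.0 estimated reads after melatonin and 7.0, 4.0 and 3.0 after vehicle.

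Cd3g and Cd3d encode the gamma and delta chains, and on the reference annotation the 3 CD3 genes are direct neighbours on chromosome 8. Cd3g stood at 0.49, 0.48 and 2.88 FPKM after melatonin, against 0.96, 3.67 and 0.97 FPKM after vehicle. High values were thus found in melatonin animal 6 and in vehicle animal 2, and the groups overlapped. Its log2 change was -0.36 ± 0.50 (limma adjusted p = 0.974), on 1.0 to 7.0 estimated reads per library. Cd3d was listed at 0, 0 and 1.33 FPKM after melatonin, against 0.44, 0.48 and 0 FPKM after vehicle. Its 1.33 FPKM in melatonin animal 6 is 3.0 estimated reads, and 3 reads, the limit that a count of 0 allows, would be 1.32 to 1.38 FPKM in the libraries where it was listed at 0. Differences in Cd3d between animals were not detectable at this depth.

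Cd247 encodes the zeta chain, which NK cells also use with their own receptors. It stood at 4.65, 2.0 and 4.46 FPKM after melatonin, against 2.86, 3.66 and 3.32 FPKM after vehicle. The vehicle values all fell inside the range of the melatonin values. Its log2 change was 0.08 ± 0.28 (limma adjusted p = 0.983), with a 95% interval from -0.57 to 0.73. The zeta chain has 2 transcripts in the table. Isoform 2 carried the whole value in 5 animals and isoform 1 in vehicle animal 2 alone, on 20.6 estimated reads.

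Lck, the kinase that starts receptor signalling, stood at 2.06, 3.87 and 2.87 FPKM in melatonin animals 4, 5 and 6, against 2.45, 1.10 and 1.31 FPKM in vehicle animals 1, 2 and 3. Vehicle animal 1 lay above melatonin animal 4, and the other vehicle animals lay below all melatonin animals. The means were 2.93 ± 0.907 FPKM after melatonin and 1.62 ± 0.726 FPKM after vehicle (SD, n = 3 each). The log2 change was 0.59 ± 0.29 (limma adjusted p = 0.972), with a 95% interval from -0.08 to 1.27. The limma unadjusted p was 0.0764, and it was 0.0423 without melatonin animal 4 and 0.0306 without vehicle animal 1.

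The coreceptors differed from each other in pattern. Cd8a, the alpha chain of the coreceptor for MHC class I, stood at 0.62, 0.81 and 3.65 FPKM after melatonin, against 1.01, 0.44 and 1.03 FPKM after vehicle. Melatonin animal 6 was high, with 18.0 estimated reads where the other 5 libraries had 2.0 to 5.0, and melatonin animals 4 and 5 lay within the vehicle range. The log2 change was 0.40 ± 0.43 (limma adjusted p = 0.974), and without melatonin animal 6 it was -0.076. Cd8b, the beta chain found on T cells, named after its values were seen, was listed at 0, 0.68 and 0.46 FPKM after melatonin and at 0.23, 0 and 0 FPKM after vehicle. Cd4, the coreceptor for MHC class II, stood at 1.34, 1.79 and 1.95 FPKM after melatonin, against 2.12, 1.42 and 1.32 FPKM after vehicle. It varied least of the 10 genes in relation to its level, and its log2 change was 0.05 ± 0.25 (limma adjusted p = 0.991), with a 95% interval from -0.54 to 0.63.

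**Figure D2:**
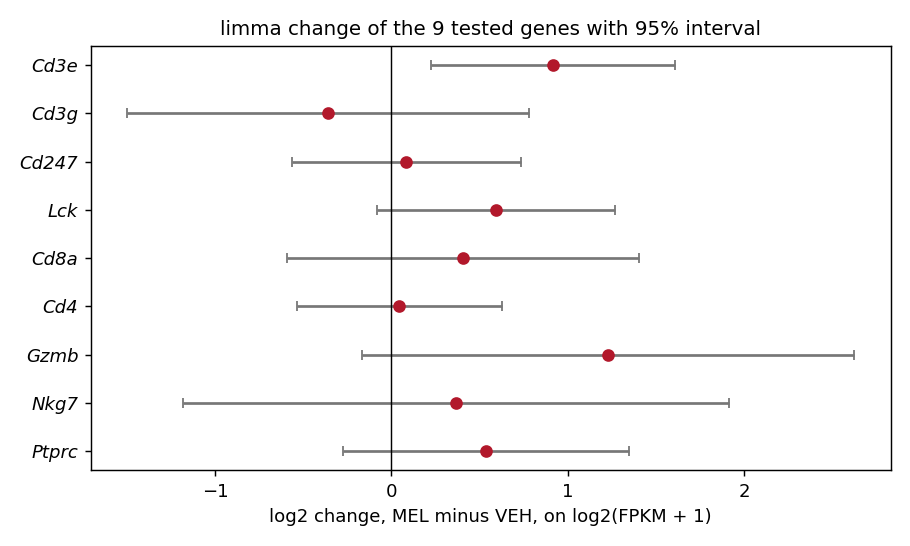
log2 change (melatonin minus vehicle) of the 9 tested genes on the log2(FPKM + 1) scale from limma, with 95% intervals that are not adjusted for the number of features. The interval of Cd3e, from 0.23 to 1.61, lies above 0, and the other 8 intervals include 0.

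Gzmb had the largest log2 change of the 9 tested genes and the widest spread between melatonin animals. It encodes granzyme B, the granule protease that starts apoptosis in a target cell. It stood at 0.41, 2.17 and 7.52 FPKM in melatonin animals 4, 5 and 6, against 0.79, 0.65 and 0 FPKM in vehicle animals 1, 2 and 3. Melatonin animal 4 lay inside the vehicle range, while animals 5 and 6 lay above it with 11.1 and 37.9 estimated reads. The vehicle libraries held 4.0, 3.0 and 0 estimated reads, and 3 reads in vehicle animal 3 would be 0.599 FPKM. The log2 change was 1.23 ± 0.61 (limma adjusted p = 0.972), with a 95% interval from -0.17 to 2.62. Without melatonin animal 6 it was 0.56, and without melatonin animal 4 it was 1.86 (limma unadjusted p = 0.00679). With a pseudocount of 0.1 it was 2.35 and with voom 2.38. Rat granzymes form a family of similar genes, and the protein match in the authors' table calls this transcript granzyme-like protein 1, and reads of related granzymes may be included.

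Nkg7 encodes a membrane protein of cytotoxic granules, and its values did not follow those of Gzmb. It stood at 1.84, 6.09 and 2.15 FPKM after melatonin, against 5.03, 3.92 and 0 FPKM after vehicle. Melatonin animal 5 and vehicle animal 1 were the highest, and vehicle animal 3 was listed at 0, where 3 reads would be 1.09 FPKM. Its log2 change was 0.37 ± 0.67 (limma adjusted p = 0.976). Without melatonin animal 5 it was -0.05 and without vehicle animal 3 it was -0.45, so its direction rests on those animals. With a pseudocount of 0.1 it was 1.24 and with voom 1.00.

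Ptprc, the leukocyte phosphatase CD45, was highest in melatonin animal 4, where Gzmb was lowest of the melatonin animals. It stood at 5.19, 2.58 and 1.52 FPKM in melatonin animals 4, 5 and 6, against 1.39, 1.36 and 2.25 FPKM in vehicle animals 1, 2 and 3. Melatonin animal 6 lay inside the vehicle range. These values rest on 87.4, 43.4 and 26.0 estimated reads after melatonin and on 23.1, 22.1 and 38.1 after vehicle, more than for any of the other 9 genes by the mean. The log2 change was 0.54 ± 0.35 (limma adjusted p = 0.972), without melatonin animal 4 it was 0.19, and without melatonin animal 6 it was 0.84 (limma unadjusted p = 0.0369). Cells differ in which CD45 isoform they splice, and the table has 5 of its transcripts. In melatonin animal 4 the value was divided into 1.27 FPKM for isoform 1, 1.61 for isoform 3, 2.29 for isoform 4 and 0.02 for isoform 5. Isoform 1 alone was listed in melatonin animal 5 and vehicle animal 1, and isoform 3 alone in melatonin animal 6. Vehicle animal 2 had 0.59 FPKM for isoform 2 and 0.77 for isoform 4, and vehicle animal 3 had 1.54 for isoform 1 and 0.71 for isoform 4. The isoforms share most of their sequence, so the division of reads between them is uncertain and only the sum was read.

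**Figure D3:**
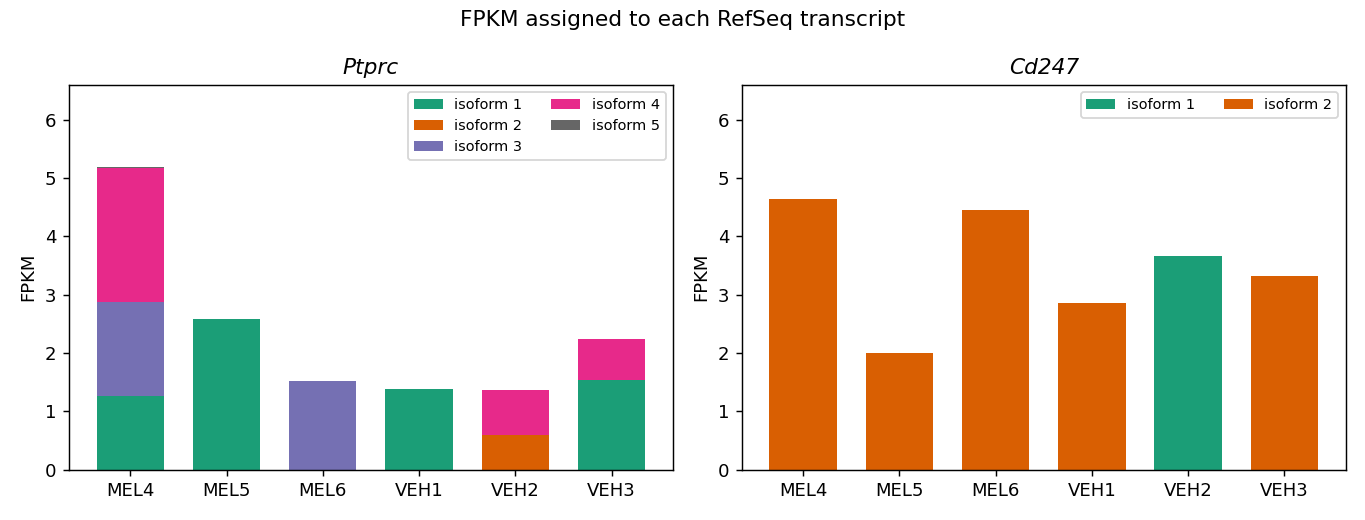
FPKM that the authors' table assigns to each RefSeq transcript of Ptprc (left) and Cd247 (right), stacked per animal. A single isoform holds the whole value in 3 of the 6 animals for Ptprc and in all 6 for Cd247, and which isoform it is differs between animals.

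The promoters of Gzmb, Cd3e and Ptprc are shown because Gzmb was highest in melatonin animal 6, Ptprc in melatonin animal 4, and Cd3e was without overlap between groups. RefSeq (build GRCr8) gave a window of 250 bases before to 50 after the start for 9 of the 10 genes, Lck with 2 starts, so 10 windows in all. They were searched on both strands for TGTGGT, the core bound by RUNX factors, for TGANTCA, the AP-1 site, and for TATAAA, the TATA box. Capitals mark these matches, which do not overlap each other.
Gzmb, chr15:34462420-34462719, minus strand: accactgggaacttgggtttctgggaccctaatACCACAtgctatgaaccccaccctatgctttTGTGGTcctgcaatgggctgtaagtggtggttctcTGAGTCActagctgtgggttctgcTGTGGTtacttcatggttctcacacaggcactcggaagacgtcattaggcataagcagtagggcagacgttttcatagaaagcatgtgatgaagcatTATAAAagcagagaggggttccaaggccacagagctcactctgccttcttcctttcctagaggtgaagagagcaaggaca
Cd3e, chr8:54211721-54212020, minus strand: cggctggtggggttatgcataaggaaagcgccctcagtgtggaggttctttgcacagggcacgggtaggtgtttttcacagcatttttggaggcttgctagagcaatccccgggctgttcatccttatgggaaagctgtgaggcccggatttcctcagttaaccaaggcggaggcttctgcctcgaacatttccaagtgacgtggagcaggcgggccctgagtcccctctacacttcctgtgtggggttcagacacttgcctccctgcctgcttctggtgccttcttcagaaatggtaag
Ptprc, chr13:52259697-52259996, minus strand: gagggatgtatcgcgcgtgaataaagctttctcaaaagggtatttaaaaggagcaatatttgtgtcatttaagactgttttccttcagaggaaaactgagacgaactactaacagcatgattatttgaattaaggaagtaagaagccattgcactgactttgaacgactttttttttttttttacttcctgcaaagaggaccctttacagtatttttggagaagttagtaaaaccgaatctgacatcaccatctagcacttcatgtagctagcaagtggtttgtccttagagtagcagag
The Gzmb window held 3 RUNX cores, at -217, -186 and -127 from the start (first base of the match), 1 AP-1 site at -151 and 1 TATA box at -30. The Cd3e and Ptprc windows held none of these letters. Over the 10 windows, 3 held a RUNX core, 1 an AP-1 site and 1 a TATA box, against 17.3%, 7.33% and 14.2% of 33469 rat promoters. GGAA, the core bound by ETS factors, was in all 10 windows, but also in 95.8% of rat promoters. The matches describe these letters only, and the data hold no measure of binding.

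Other genes of T cell receptor signalling, taken as a list, showed no shared direction. Of 40 listed, 31 had a row and 11 were tested, and limma called 0 of them in either direction, with 0 at an unadjusted p under 0.05. All melatonin animals lay below all vehicle animals for 1, Ptpn6, against 4.33% of all features, and above them for 0, against 4.04%. Ptpn6, a phosphatase gene, stood at 21.95, 20.03 and 22.29 FPKM after melatonin and 22.46, 24.21 and 23.23 FPKM after vehicle. The change was above 0 for 5, against 46% of all features, and below 0 for 6, with a median of -0.09. The 5 above 0 were Lcp2, Cd6, Fyb1, Vav1 and Nfatc2, with vehicle means of 0.687 to 2.89 FPKM. Of those below 0, Csk, Rasgrp1, Ptpn6, Plcg1 and Bcl11b had vehicle means of 61.8, 24.8, 23.3, 13.7 and 6.37 FPKM. These lie above the 3.28 FPKM of Cd247, the highest lymphocyte gene by that mean, and Lat, at 1.99 FPKM, does not. All but Lcp2, Cd6, Lat and Ptpn6 were named after their values were seen. Lcp2, the adaptor SLP-76, stood at 2.39, 5.37 and 2.41 FPKM after melatonin and 2.50, 1.32 and 1.76 FPKM after vehicle. Cd6, a T cell surface receptor, stood at 1.18, 2.49 and 0.96 FPKM after melatonin and 1.06, 0.42 and 0.58 FPKM after vehicle. Lat, the membrane adaptor behind the receptor, stood at 0.75, 1.45 and 1.45 FPKM after melatonin and 3.15, 1.59 and 1.23 FPKM after vehicle. Melatonin animal 5 was thus the highest for Lcp2 and Cd6, and vehicle animal 1 for Lat.

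Genes of the cytotoxic granule gave 9 tested of 14 with a row, and limma called 0 in either direction, with 0 at an unadjusted p under 0.05. The change was above 0 for 7 of the 9, against 46% of all features, with a median of 0.11. Gzma, granzyme A, stood at 0.38, 3.71 and 6.70 FPKM in melatonin animals 4, 5 and 6, against 2.61, 0 and 0.38 FPKM in vehicle animals 1, 2 and 3. Gzmm, granzyme M, stood at 0.31, 1.52 and 4.26 FPKM after melatonin, against 1.83, 0 and 0.62 FPKM after vehicle. Both genes, like Gzmb, were highest in melatonin animal 6, and vehicle animal 1 lay above melatonin animal 5 for Gzmm. Prf1, perforin, picked out after its values were seen as the pore former of the granule, stayed between 0.14 and 0.45 FPKM after melatonin and between 0.16 and 0.29 FPKM after vehicle, or 1.0 to 3.0 estimated reads. Of the 14 genes, 6 had their highest value in melatonin animal 6, or 42.9%, where 14.2% of all features and 42.9% of the 14 colonic epithelium markers did. Srgn, the proteoglycan that packs the granule in many leukocytes, was highest in melatonin animal 5, at 27.3 FPKM.

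NK receptors and their adaptors gave 4 tested genes of 19 with a row, and limma called 0, with 0 at an unadjusted p under 0.05. All 4 changes were above 0, against 46% of all features, with a median of 0.27. Klrk1, the activating receptor NKG2D, stood at 0.77, 2.73 and 5.47 FPKM in melatonin animals 4, 5 and 6, against 1.24, 0 and 1.01 FPKM in vehicle animals 1, 2 and 3 (log2 change 1.08 ± 0.51, limma adjusted p = 0.972). Melatonin animal 4 lay inside the vehicle range, as it did for Gzmb. Tyrobp, the adaptor DAP12, which myeloid cells also use, overlapped between the groups, at 5.06, 5.47 and 3.84 FPKM after melatonin and 5.49, 1.80 and 3.33 FPKM after vehicle. Ncr1, a receptor largely restricted to NK cells and related innate lymphocytes, stood at 1.37, 1.11 and 0.89 FPKM after melatonin and 0.44, 0.97 and 1.57 FPKM after vehicle. Of the 19 genes, 8 had their highest value in melatonin animal 6, or 42.1%, and 4 were tied between animals; the shares of all features and of epithelial markers were the 14.2% and 42.9% given above. Rat Klr genes include close copies, so their reads carry that uncertainty.

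**Figure D4:**
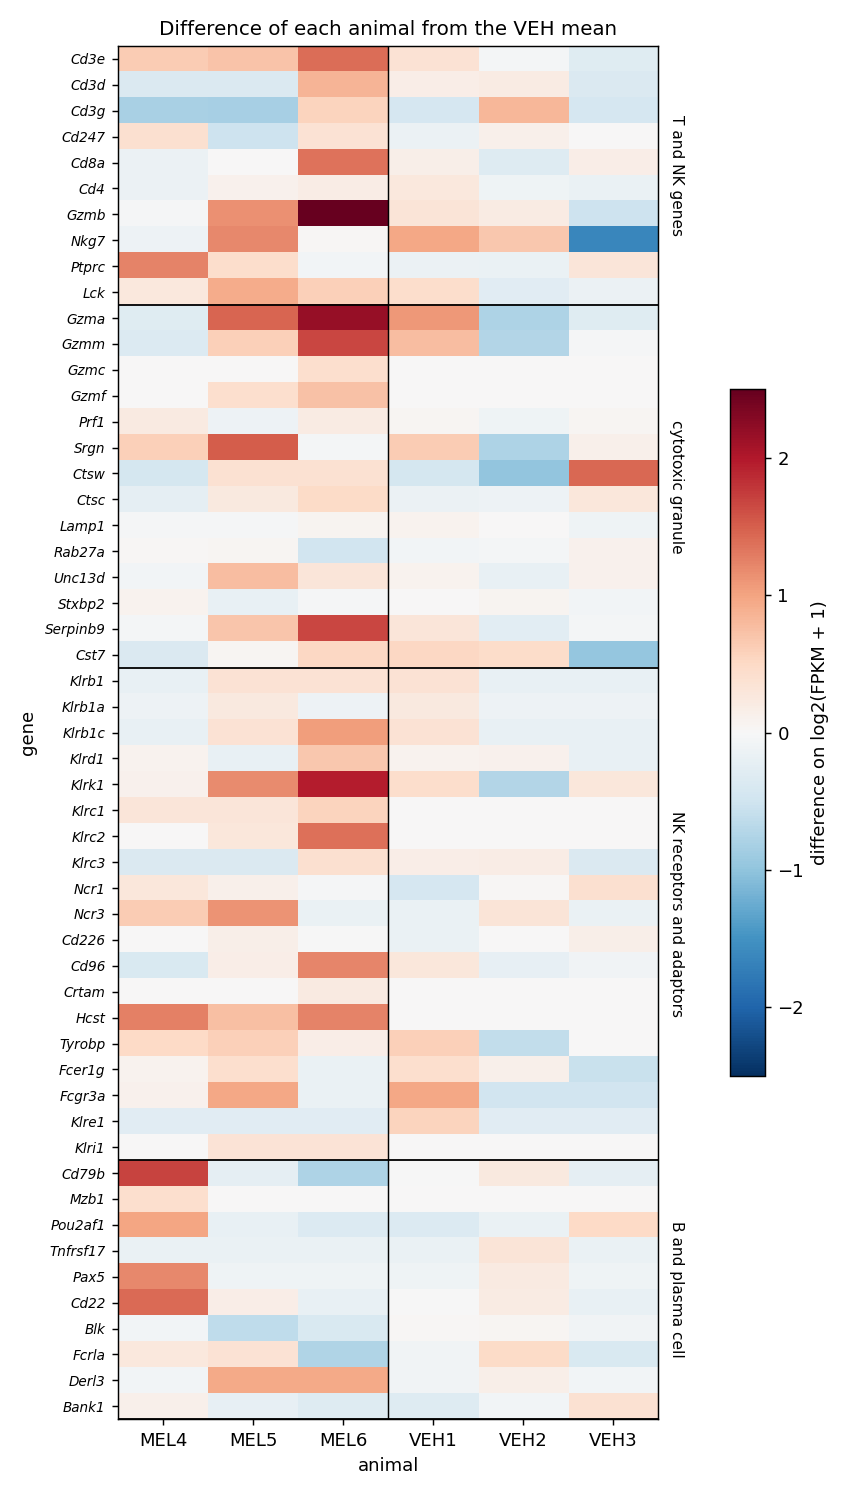
Difference of each animal from the vehicle mean on the log2(FPKM + 1) scale for the 10 lymphocyte genes and for measured genes of 3 lists, with melatonin animals in the left 3 columns and vehicle animals in the right 3; the colour scale ends at 2.5 in each direction, and Gzmb in melatonin animal 6 lies at 2.57. Gzma, Gzmm and Klrk1 are also high in melatonin animal 6, and Cd79b and Cd22 are high, with Ptprc, in melatonin animal 4.

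Receptors that hold lymphocytes in the epithelium and feed them gave 10 tested genes of 24 with a row, and limma called 0 in either direction. At an unadjusted p under 0.05, 1 was higher, against 1.82% of all features, and 8 of the 10 changes were above 0, against 46%. Their median was 0.30. Il2rg, the common gamma chain of the receptors for interleukins such as IL-15 and IL-7, stood at 4.36, 3.36 and 3.01 FPKM after melatonin, against 2.31, 1.35 and 0.90 FPKM after vehicle. Its groups did not overlap, and its log2 change was 0.89 ± 0.28 (limma unadjusted p = 0.0120, limma adjusted p = 0.972). Itgb7, the beta chain of the integrin that binds E-cadherin, stood at 1.31, 1.70 and 1.71 FPKM after melatonin, against 1.17, 1.28 and 0.32 FPKM after vehicle, also without overlap. Its partner Itgae, picked out after its values were seen, stood at 2.31, 2.25 and 2.03 FPKM after melatonin and 1.65, 2.05 and 1.67 FPKM after vehicle. Il2rb, the beta chain of the IL-15 receptor, was highest in melatonin animal 6, at 0.67, 1.19 and 3.81 FPKM after melatonin against 1.2, 0.12 and 0.33 FPKM after vehicle. Of the 10 tested genes, 2 were without overlap, beside 4.04% of all features.

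Ligands that act on T and NK cells, whose source cells the libraries do not show, gave 15 tested genes of 19 with a row, and limma called 0 in either direction. At an unadjusted p under 0.05, 2 were higher, against 1.82% of all features, and 13 of the 15 changes were above 0, against 46%, with a median of 0.23. Tnfsf10, the death ligand TRAIL, stood at 16.4, 16.6 and 15.6 FPKM after melatonin, against 9.31, 3.99 and 4.04 FPKM after vehicle, without overlap. Tgfb1, which drives expression of the E-cadherin-binding integrin, stood at 5.74, 5.97 and 5.4 FPKM after melatonin, against 4.06, 1.69 and 1.95 FPKM after vehicle (log2 change 0.97 ± 0.27, limma adjusted p = 0.972). Its groups did not overlap either. Of the 15 tested genes, 2 had all melatonin animals above all vehicle animals, beside 4.04% of all features, and 0 had them below, beside 4.33%. Cxcl11, a ligand of the chemokine receptor CXCR3, stood at 1.41, 5.47 and 4.93 FPKM after melatonin, against 3.02, 1.2 and 1.11 FPKM after vehicle. Cxcl16, the ligand of CXCR6, stood at 52.4, 70.0 and 71.2 FPKM after melatonin, against 56.4, 41.2 and 59.7 FPKM after vehicle. For both chemokines melatonin animals 5 and 6 lay above all vehicle animals and melatonin animal 4 did not.

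Of the effector cytokines, 9 of 20 had a row and 2 were tested, and limma called 0, with 0 at an unadjusted p under 0.05. Ccl5, a chemokine of cytotoxic lymphocytes that other cells also make, stood at 2.15, 9.90 and 25.1 FPKM in melatonin animals 4, 5 and 6, against 3.66, 4.57 and 1.59 FPKM in vehicle animals 1, 2 and 3. Areg, amphiregulin, which epithelial cells also make, stood at 3.33, 6.97 and 10.2 FPKM after melatonin and 2.0, 3.0 and 5.31 FPKM after vehicle. Both were highest in melatonin animal 6, and the groups overlapped. The genes of interferon gamma and of the interleukins 17a and 22 are not analysed here. Of the transcription factors, 10 of 15 with a row were tested and 0 called, with 0 at an unadjusted p under 0.05. Runx1, which T cells share with the epithelium, stood at 16.0, 14.7 and 13.7 FPKM after melatonin and 12.5, 11.9 and 11.2 FPKM after vehicle, without overlap. Of the 10 tested genes it was the only one with all melatonin animals above all vehicle animals, beside 4.04% of all features. Prdm1 stood at 0.50, 2.01 and 5.45 FPKM after melatonin and 0.82, 0.59 and 0.61 FPKM after vehicle, again highest in melatonin animal 6.

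Gene lists of other pathways were set beside these values. Interferon-stimulated genes, 21 with a row, summed to 244.8, 619.4 and 759.5 FPKM in melatonin animals 4, 5 and 6, against 346.6, 216.3 and 251.6 FPKM in vehicle animals 1, 2 and 3. That is the same order of melatonin animals as for Gzmb, Gzma, Klrk1 and Ccl5. Of the other lymphocyte genes, Cd3e, Cd8a and Cd4 had this order, and Ptprc, Cd247, Lck, Nkg7, Cd3g and Cd3d did not. Ptprc and Cd247 were highest of the melatonin animals in animal 4, and Lck and Nkg7 in animal 5. A change above 0 was found for 20 of 20 tested interferon-stimulated genes, against 46% of all features. At an unadjusted p under 0.05, 5 were higher, against 1.82%, and 0 were called. MHC class II genes, 9 with a row, summed to 586.1, 1310.8 and 512.6 FPKM after melatonin, against 614.0, 402.7 and 416.9 FPKM after vehicle, highest in melatonin animal 5. Their part in the lymphocyte values was not tested.

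Some markers of B cells were, like Ptprc, highest in melatonin animal 4. The marker sum, most of it from the single gene Fcrla, had another order over the 6 animals than Ptprc. The 11 with a row summed to 33.5, 23.8 and 11.3 FPKM in melatonin animals 4, 5 and 6, against 16.5, 26.1 and 15.2 FPKM in vehicle animals 1, 2 and 3, and Fcrla made up most of these sums. Vehicle animal 2 thus had the second highest sum, of which Fcrla was 21.3 FPKM, and the lowest Ptprc. 6 of the 11 had their highest value in melatonin animal 4, or 54.5%, where 21.2% of all features did. Cd22, Pax5 and Blk were picked out after their values were seen. Cd22, an inhibitory B cell receptor, stood at 2.30, 0.38 and 0.08 FPKM after melatonin, against 0.23, 0.42 and 0.08 FPKM after vehicle. Pax5, which defines the B lineage, was listed at 1.47, 0 and 0 FPKM after melatonin, against 0, 0.26 and 0 FPKM after vehicle. Other markers were not highest in melatonin animal 4. Derl3, of the secretory pathway, stood at 0.65, 2.32 and 2.32 FPKM after melatonin, against 0.63, 0.92 and 0.64 FPKM after vehicle. Fcrla, at 18.2, 19.6 and 8.56 FPKM after melatonin against 14.1, 21.3 and 11.3 FPKM after vehicle, and the B cell kinase Blk, at 0.83 FPKM, were highest in vehicle animal 2. Cd79b, of the B cell receptor, stood at 4.54 FPKM in melatonin animal 4 and at 0 to 1.02 FPKM in the other 5 animals. The part of B cells in the value of Ptprc was not tested.

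Markers of leukocytes in general gave 18 tested genes of 22 with a row, and limma called 0 in either direction. At an unadjusted p under 0.05, 4 were higher and 1 lower, against 1.82% and 1.92% of all features, and 14 of the 18 changes were above 0, against 46%, with a median of 0.45. All melatonin animals lay above all vehicle animals for 3 genes, Coro1a, Laptm5 and Lcp1, and below them for 1, Gmfg, against 4.04% and 4.33% of all features. Coro1a, an actin regulator of leukocytes, stood at 7.42, 4.93 and 5.82 FPKM after melatonin, against 2.65, 3.28 and 3.57 FPKM after vehicle. Laptm5, a lysosomal protein of leukocytes, stood at 6.17, 5.74 and 6.67 FPKM after melatonin, against 4.32, 3.71 and 3.18 FPKM after vehicle. Their limma adjusted p-values were 0.972 for Coro1a and 0.972 for Laptm5. Gmfg, a regulator of actin branching in blood cells, stood at 34.0, 39.8 and 35.4 FPKM after melatonin, against 50.04, 46.6 and 43.8 FPKM after vehicle. Red blood cell genes, 6 with a row, summed to 130.4, 77.4 and 132.9 FPKM after melatonin and 151.3, 127.7 and 170.7 FPKM after vehicle. Smooth muscle genes summed to 89.0 to 123.4 FPKM after melatonin and 110.8 to 116.9 FPKM after vehicle, and neutrophil genes to 6.77 to 13.2 FPKM after melatonin and 1.32 to 17.2 FPKM after vehicle. Endothelial genes summed to 2.63 to 5.06 FPKM after melatonin and 2.4 to 4.24 FPKM after vehicle, and fibroblast genes to 1.91 to 3.2 FPKM after melatonin and 1.79 to 4.99 FPKM after vehicle. limma called 0 of the tested genes in each of these lists. Of 4 tested red blood cell genes 1, Hbb-b1, was lower at an unadjusted p under 0.05, against 1.92% of all features. It also had all melatonin animals below all vehicle animals, against 4.33%. The change was above 0 for 0 of these 4, against 46% of all features, with a median of -0.42. The part of the cells of these lists in the lymphocyte values was not tested.

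The genes with profiles most like Cd3e and Ptprc were found by the root mean square distance over the 6 animals between values on the log2(FPKM + 1) scale, each centred on its own mean. For Cd3e they were Fcer2 at 0.094, Rad1 at 0.101 and Rgs19 at 0.129, beside a spread of 0.55 for Cd3e itself. For Ptprc they were Tmem144 at 0.17, Cfap418 at 0.17 and Casr at 0.19, beside 0.49 for Ptprc itself. Fcer2, the low-affinity IgE receptor CD23, stood at 2.08, 1.82 and 4.49 FPKM after melatonin and 1.40, 0.79 and 0.44 FPKM after vehicle. The search ran over the tested features with a RefSeq symbol that does not begin with LOC or RGD, so other features could not be returned.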

How the data were processed

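Polyadenylated RNA from 6 rats was sequenced, 1 library per animal, per the labels' protocols, which describe no strand marking, so a gene and its antisense partner cannot be told apart. The authors deposited FPKM per RefSeq transcript, per the file headers, and the values have 2 decimals. RSEM, Bowtie2, BWA 0.7.10-r789 and the build rn6 appear in the submitters' processing notes, with no roles; the annotation release is not given in the sources used here. Group means are also in the authors' deposited table, with log2 ratios of them (0 set to 0.01) and a score called Probability, whose method is not stated. These columns were used only to check the means, which differed by at most 3.33e-06.

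Transcripts were matched by accession to RefSeq symbols (GRCr8, names only), 12883 of 13647, and summed per gene, giving 13104 features with 764 unmatched transcripts. Features with a mean of at least 1 FPKM (10137) entered limma 3.58.1 (R 4.3.3), fitted to log2(FPKM + 1) with a mean trend. Its two-sided p-values were adjusted by Benjamini-Hochberg over all tested features, with 0.05 as threshold. Changes on this scale understate those of low genes. The procedure was tested on simulated data, with changes placed only in features of a higher level than the lymphocyte genes. That test does not show how well changes in the lymphocyte genes would be found. All differences are melatonin minus vehicle. p-values measure the spread between these animals.

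Depth was estimated from transcripts of 200 to 700 bases with few reads. With 38 bases taken off each length, 84.7% to 89.6% of the 122 to 141 values used per library were whole reads to within 0.1. Estimated reads follow from that step, and limits for values of 0 cover counting error only. 

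The genes, lists and tests were chosen with earlier results of these data known. All 10 lymphocyte genes are reported. From each list the tested genes with the smallest p, at most 4, could be named, and exceptions are marked; Epcam was added as a check of the tissue. Alternatives were 2 scalings, 2 filters, a pseudocount of 0.1, voom on estimated reads, unsummed transcripts and leaving out each animal. Some genes of the marker lists are not reported here by name, though list counts and sums include them. Rae1 was taken out of the ligand list after its values were seen, since RefSeq uses that symbol for an mRNA export factor.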

Additional observations from a re-analysis of the deposited data

How the results depend on the processing

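Under each alternative 0 of the lymphocyte genes passed the threshold, and 104 of 113 alternative values of single genes kept their sign. At an unadjusted p under 0.05, 0 to 3 of the tested genes were higher, 3 without melatonin animal 4 and 0 without vehicle animal 3. Of all features, 4.74% were higher at that limit without melatonin animal 4, against 1.82% in the main fit. The share without vehicle animal 3 was not computed. The median change of the tested genes was 0.72 with a pseudocount of 0.1 and 0.73 with voom on estimated reads, against 0.40. It ranged from 0.43 to 0.61 when single animals were left out. The 9 values that turned sign came from leaving out an animal. Over these left-out animals Cd3g ranged from -0.82 to 0.058, Cd247 from -0.076 to 0.38, Cd8a from -0.076 to 0.69, Cd4 from -0.036 to 0.18 and Nkg7 from -0.45 to 0.85. Cd3g turned without vehicle animal 2 (0.058). Cd247 turned without melatonin animal 4 (-0.076) or 6 (-0.052), and Cd8a without melatonin animal 6 (-0.076). Cd4 turned without melatonin animal 6 (-0.024) or vehicle animal 2 (-0.0053) or 3 (-0.036), and Nkg7 without melatonin animal 5 (-0.05) or vehicle animal 3 (-0.45). Cd3e ranged from 0.68 to 1.10 over left-out animals with a limma unadjusted p from 0.0113 to 0.0546, and was 1.31 with a pseudocount of 0.1 and 1.28 with voom. Under these 2 settings Gzmb was 2.35 and 2.38, against 1.23, Nkg7 1.24 and 1.00, against 0.37, and Cd3g -0.69 and -0.57, against -0.36. Over all features, leaving out 1 animal gave 0 to 4 calls, with 0 to 4 higher and 0 to 1 lower. The calls were Ifi27l2b, Ifit2, Mir126a and Oasl2 without melatonin animal 4, Fam111a, Scgb1a1 and Tnfsf10 without vehicle animal 1, and Mir3084a, lower, without vehicle animal 2. Without a filter 1 feature, Mir3074, was called lower. They are named because the counts are small. With at least 1 FPKM required in 3 animals, Cd3g and Gzmb were not tested. No paired analysis was possible because melatonin animals are numbered 4 to 6 and vehicle animals 1 to 3, so the groups share no number. Depth limits all of these genes: Cd3g and Cd8a rest on at most 7.0 and 18.0 estimated reads in any library. The causes of these shifts were not tested.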

Other observations

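Mast cell and macrophage genes were also present in the tissue. Mcpt1, a protease of mucosal mast cells, stood at 103.5, 173.9 and 56.8 FPKM in melatonin animals 4, 5 and 6, against 142.8, 52.5 and 64.6 FPKM in vehicle animals 1, 2 and 3. This is far above Cd247, the highest of the lymphocyte genes, on a scale that corrects for length. The groups overlapped, with melatonin animal 5 and vehicle animal 1 highest, the same pair that was highest for Nkg7. C1qb, a complement chain made by macrophages, stood at 7.29, 8.35 and 3.30 FPKM after melatonin and 9.65, 5.54 and 4.88 FPKM after vehicle, lowest in melatonin animal 6. The mannose receptor Mrc1 stood at 0.72, 1.82 and 10.7 FPKM after melatonin and 2.15, 2.29 and 0.82 FPKM after vehicle, highest in melatonin animal 6. Of the 15 macrophage and dendritic cell genes with a row, only this 1 was highest there, or 6.67%, against 14.2% of all features. Limma called 0 of 13 tested macrophage and dendritic cell genes and 0 of 4 tested mast cell genes, with 0 at an unadjusted p under 0.05 in both lists. These genes were picked out after their values were seen.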
